A study of Rattus norvegicus with 15 samples.

Results

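The 10 circadian clock genes described here are Per1, Per2, Per3, Cry1, Cry2, Clock, Dbp, Tef, Nr1d1 and Nr1d2. They were found by their exact gene names among the 22468 genes of the deposited table, each with 1 entry, and all 10 passed the filter on low counts that 17657 genes passed. Their messenger RNA was measured in bone of female Sprague-Dawley rats by bulk poly(A) RNA sequencing, with 15 libraries in 5 groups of 3. The groups SYT, YJT and YJZYT (names whose meaning the labels do not spell out) and the group Model (condition osteoporosis) were all ovariectomized, a procedure that removes the ovaries and their oestrogen. The Blank rats had no treatment, and no sham-operated group is described. The study compared osteoporotic rats with rats treated with Zhuanggu Zhitong Capsule, a herbal medicine. The labels give neither the time of day at which bone was taken nor any age, dose or duration. Nothing says that the 3 libraries of a group came from 3 animals, so a p-value speaks only to the variation among libraries.

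The circadian clock is a loop of transcription factors that runs in nearly every cell, bone cells included. CLOCK and BMAL1 (encoded by Arntl) bind E-box sequences and switch on Per and Cry genes, whose proteins then block CLOCK and BMAL1. CLOCK and BMAL1 also switch on Nr1d1 and Nr1d2, which encode the nuclear receptors REV-ERBα and REV-ERBβ that repress Arntl, Npas2, Clock, Cry1 and Nfil3, and Dbp and Tef, whose proteins act on D-box sequences. Dbp, Nr1d1 and the Per genes therefore peak at another time of day than Arntl and Npas2 in rodent tissues. Tissues taken at different times can thus differ in opposite directions in the 2 arms, but need not do so for every gene. PER1 is also known as a fast target of the glucocorticoid receptor, apart from the loop.

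Promoter sequences are shown for 4 genes because their letters carry the switches just named: an E-box (CACGTG) in the promoters of Tef and Nr1d1, an E-box variant (CACGTT, or AACGTG on the other strand) and a D-box (TTATGTAA) in that of Per2, and the REV-ERB element core (TAGGTCA) in that of Arntl. Each is a window of 300 bases from RefSeq on the build GRCr8, from 250 bases before the annotated start, read on the gene's strand, with the motifs in capitals.
Tef promoter (chr7:115206577-115206876, plus strand): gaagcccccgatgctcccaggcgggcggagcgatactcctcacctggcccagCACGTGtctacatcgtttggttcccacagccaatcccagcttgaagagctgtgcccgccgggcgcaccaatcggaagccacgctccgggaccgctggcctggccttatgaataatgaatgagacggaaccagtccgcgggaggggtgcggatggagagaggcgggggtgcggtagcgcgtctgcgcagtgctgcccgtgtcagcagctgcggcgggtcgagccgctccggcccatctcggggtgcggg
Nr1d1 promoter, second start (chr10:84229405-84229704, minus strand): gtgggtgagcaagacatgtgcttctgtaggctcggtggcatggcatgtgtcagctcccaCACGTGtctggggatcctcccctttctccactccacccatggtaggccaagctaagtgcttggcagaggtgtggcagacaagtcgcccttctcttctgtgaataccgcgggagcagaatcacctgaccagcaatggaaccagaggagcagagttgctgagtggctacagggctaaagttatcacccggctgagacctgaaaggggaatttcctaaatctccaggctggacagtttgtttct
Per2 promoter (chr9:99496944-99497243, minus strand): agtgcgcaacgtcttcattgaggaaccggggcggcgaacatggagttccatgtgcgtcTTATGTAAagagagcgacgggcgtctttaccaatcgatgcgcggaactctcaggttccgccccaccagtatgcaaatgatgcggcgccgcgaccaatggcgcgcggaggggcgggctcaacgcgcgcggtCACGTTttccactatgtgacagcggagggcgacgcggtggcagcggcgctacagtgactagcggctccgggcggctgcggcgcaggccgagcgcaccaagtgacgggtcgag
Arntl promoter (chr1:176766078-176766377, plus strand): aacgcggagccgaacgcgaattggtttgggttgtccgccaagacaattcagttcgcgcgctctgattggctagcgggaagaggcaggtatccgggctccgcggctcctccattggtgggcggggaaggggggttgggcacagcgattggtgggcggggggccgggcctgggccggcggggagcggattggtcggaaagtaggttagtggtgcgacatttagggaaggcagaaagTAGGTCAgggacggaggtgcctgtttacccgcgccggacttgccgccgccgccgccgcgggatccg
The E-box began 198 bases before the start in Tef and 191 bases before the second annotated start of Nr1d1. In Per2 the E-box variant began 62 bases and the D-box 192 bases before the start, and the element in Arntl began 16 bases before it. Of the 10 genes, 9 had at least 1 window, 11 windows in all. The canonical E-box was in 2 of the 11, and 5 held a match to at least 1 of the 6 motifs searched on both strands. The share of all windows with any of the 6 is not given here, so the 5 cannot be called many or few. Over all 33469 rat windows of this length, CACGTG was in 6.42%, CACGTT in 4.83%, TTATGTAA in 0.893% and TAGGTCA in 2.63%. The other motifs searched were TGACGTCA, the cyclic AMP response element, in 1.83% of windows, and the glucocorticoid response element, in 0.439%. Neither was in a window of the 10 genes, which says only that these letters are not in these windows. The motifs do not overlap each other, and a match describes the letters and shows no binding. The letters searched were chosen after the windows had been read.

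Library totals lay between 64472700 and 74255667 counts, so even the lowest value of a clock gene, Clock in Model 2, rested on 154 counts. Bone was the labelled tissue, and 9 osteoblast genes summed to between 3010 CPM (counts scaled to library size and TMM factors) in YJT 3 and 91248 CPM in SYT 3. Libraries differed in other cells as well: 5 osteoclast genes summed to 1110 to 8376 CPM, 4 erythroid genes to 14043 to 74703 CPM, 6 neutrophil genes to 2202 to 35412 CPM, 5 B cell genes to 205 to 773 CPM and 5 adipocyte genes to 25.8 to 300.0 CPM. The 14 skeletal muscle genes summed to 903 to 4724 CPM in SYT, 3662 to 4510 in YJT, 41 to 1048 in YJZYT, 265 to 1032 in Model and 4939 to 7490 in Blank libraries. No gene of these lists was at 0 in all libraries. In bulk tissue, fewer cells of a type and less RNA per cell cannot be told apart.

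All 10 clock genes were expressed at low to moderate levels in every library. On the length-scaled unit FPKM (fragments per kilobase of gene, scaled to library size), the median over 15 libraries was highest for Dbp with 7.42, then Cry2 with 6.94, Per1 with 5.26, Cry1 with 4.93, Nr1d2 with 4.44, Tef with 4.39, Nr1d1 with 3.84, Clock with 2.67, Per3 with 2.02 and Per2 with 1.70 FPKM. Neighbours in that order overlapped in their range over libraries. What set the genes apart was how far they varied. Per1 had a coefficient of variation of 69.7% in CPM over 15 libraries, above that of 98.1% of the genes expressed within 2-fold of its mean. Nr1d1, Tef, Per3, Nr1d2, Clock and Dbp followed, with coefficients between 37.5% and 49.7% that lay above 79.2% to 89.0% of such genes. Cry1 and Per2 had 32.2% and 31.0%, above 74.1% and 66.0% of such genes. Cry2 was the steadiest, with a coefficient of 13.8%, above that of 22.3% of such genes.

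**Figure D1:**
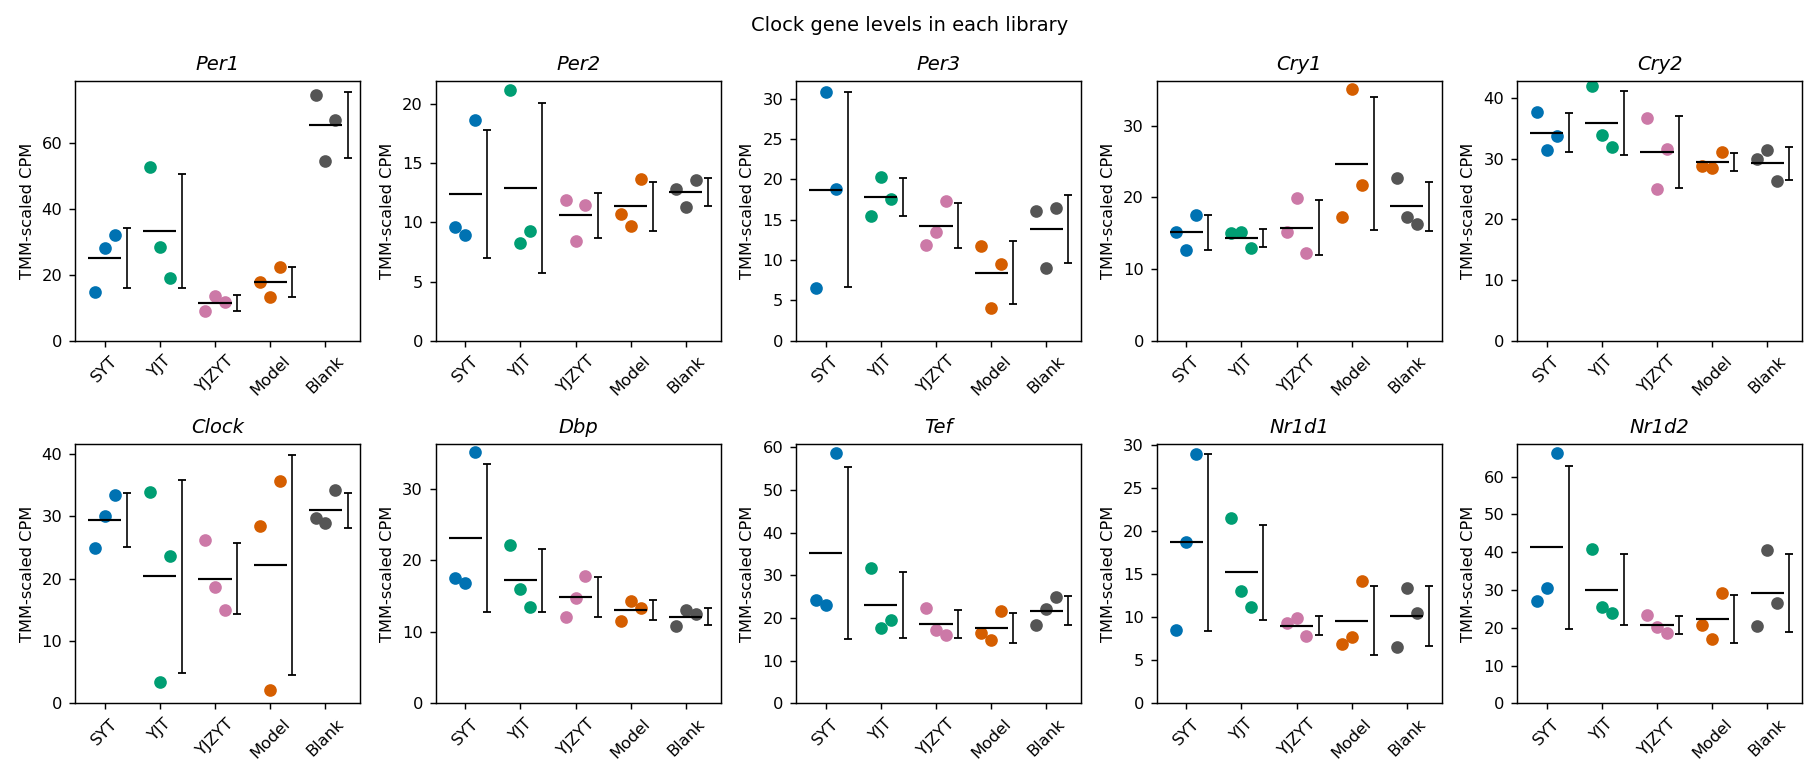
Level of each clock gene in TMM-scaled CPM (vertical axes, from 0) in every library of the groups SYT, YJT, YJZYT, Model and Blank; points are libraries, horizontal lines group means and vertical bars 1 SD either side of the mean (n = 3). The 3 Blank libraries stood above all others for Per1, SYT 3 was the highest library for Dbp, Tef, Nr1d1 and Nr1d2, and Clock was low in YJT 2 and Model 2.

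Per1, which encodes a light- and hormone-inducible repressor of the loop, differed most between groups. It had 14.8, 28.2 and 32.1 CPM in the SYT libraries and 52.6, 28.3 and 19.0 CPM in the YJT libraries. It had 8.93, 13.5 and 11.7 CPM in YJZYT, 17.9, 13.3 and 22.4 CPM in Model, and 74.5, 54.6 and 66.9 CPM in Blank bone. Every ovariectomized library was below every Blank library, and the YJZYT libraries were the lowest as a group. The gene (ENSRNOG00000007387) lies on chromosome 10 from 55687050 to 55695994, plus strand. These and the other gene coordinates are those of the deposited file, for which the labels name no build.

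Ovariectomized Model bone averaged 17.9 ± 4.59 CPM of Per1, against 65.3 ± 10.1 CPM in Blank bone (SD, n = 3 each). The log2 fold change was -1.87 with a standard error of 0.37, and edgeR's quasi-likelihood test gave an adjusted p of 0.196 over all 17657 genes (unadjusted p = 0.000222), so Per1 did not pass the threshold of 0.05. DESeq2 called it, with an adjusted p of 0.000557. By edgeR, 0 of the 10 clock genes passed in Model against Blank, where 0.0227% of all genes passed. Per1 was the 1 clock gene with an unadjusted p under 0.05, against 8.19% of all genes, and the 1 whose libraries were all lower in Model than in Blank, against 7.99% of all genes. DESeq2 passed 1 of the 10, against 1.64% of all genes.

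The treated groups lay on both sides of Model for Per1. SYT averaged 25.0 ± 9.11 CPM, YJT 33.3 ± 17.4 CPM and YJZYT 11.3 ± 2.28 CPM (SD, n = 3 each), and the libraries of each overlapped those of Model. Against Model the log2 fold changes were 0.49 (SE 0.36) in SYT, 0.90 (SE 0.36) in YJT and -0.65 (SE 0.36) in YJZYT, with edgeR adjusted p-values of 1, 0.746 and 0.725. Each of these values uses the same 3 Model libraries.

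YJZYT and YJT were set against each other directly. All 3 YJZYT libraries were below all 3 YJT libraries for Per1, with a log2 fold change of -1.55 (SE 0.37), an edgeR adjusted p of 0.158 and a DESeq2 adjusted p of 0.00505. Without YJT 1, the YJT library with the most Per1, the log2 fold change was -1.06. Nr1d1 and Nr1d2 were also lower in all YJZYT than in all YJT libraries, and such separation held for 7.59% of all genes. Their log2 fold changes were -0.75 and -0.54, with edgeR adjusted p-values of 0.927 and 0.994. By edgeR, 0 of 10 passed in this comparison, as did 0% of all genes, 1 of 10 had an unadjusted p under 0.05, against 6.39% of all genes, and DESeq2 passed 1 of 10, against 2.2% of all genes.

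Set against Blank, comparisons added after these levels had been seen, Per1 was lower in all libraries of all 3 treated groups, as 5.49% of all genes were in SYT, 7.73% in YJT and 12.7% in YJZYT. The log2 fold change was -1.38 in SYT, -0.97 in YJT and -2.53 (SE 0.38) in YJZYT, with edgeR adjusted p-values of 0.925, 0.509 and 0.0308. By edgeR, 0% of all genes passed in SYT and in YJT against Blank. Per1 in YJZYT was thus the 1 clock gene that passed edgeR's threshold in any of the 10 comparisons between 2 groups, where 0.374% of all genes passed in YJZYT against Blank and 11.9% had an unadjusted p under 0.05. DESeq2 called it there as well (adjusted p 5.58e-08), as it did 4.1% of all genes. Leaving out 1 library at a time, its log2 fold change lay between -2.67 and -2.38 and its adjusted p between 0.0139 and 0.166. The call was lost without Blank 1, Blank 2 or Blank 3, where 0, 8 and 0 of all genes passed. It was also lost without YJZYT 2 and without YJZYT 3, where 0 of all genes passed in each. Over all 5 groups at once, Per1 had an edgeR adjusted p of 0.138 and a DESeq2 adjusted p of 4.03e-07, in tests that 0.0227% and 3.45% of all genes passed. Per1 and Dbp were the 2 of 10 with an unadjusted p under 0.05 there (Dbp adjusted p 0.618), against 7.71% of all genes.

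**Figure D2:**
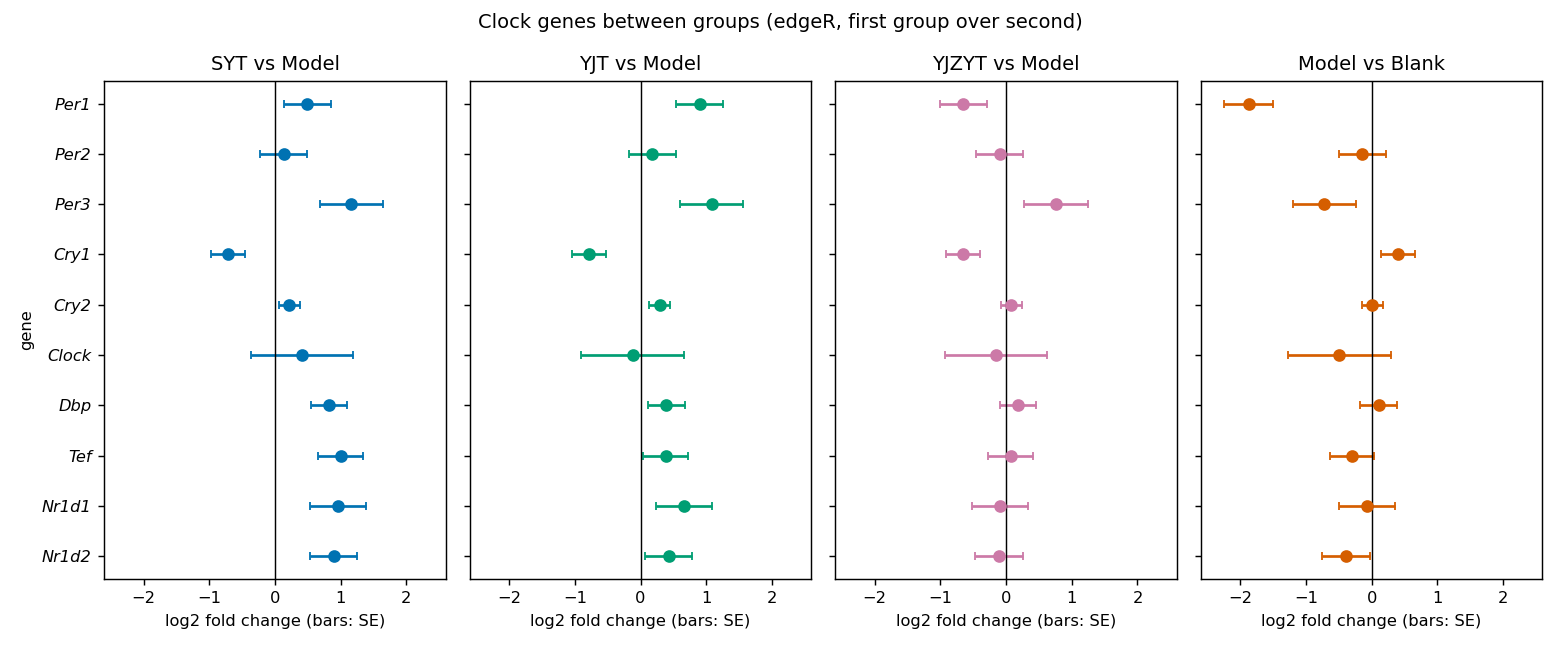
Log2 fold change of each clock gene (horizontal axes, first-named group over second; points are edgeR estimates and bars their standard errors) in SYT, YJT and YJZYT against Model and in Model against Blank. Per1 at -1.87 in Model against Blank was the estimate farthest from 0; in SYT against Model the Dbp, Tef, Nr1d1 and Nr1d2 estimates lay between 0.82 and 1.0.

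Per1 was set against 2 gene lists that are not part of the clock, and it went together with both. Its relation to the other lists was not computed. Among these, the 5 adipocyte genes summed to 223 to 300 CPM in Blank and 84 to 213 in YJT libraries. They summed to 108 to 149 CPM in SYT, 52.4 to 79 in YJZYT and 25.8 to 112 in Model libraries. The summed level of 7 genes known to respond to glucocorticoid hormones (Fkbp5, Tsc22d3, Klf9, Errfi1, Sgk1, Zbtb16 and Pdk4) was 296 to 400 CPM in SYT, 329 to 517 in YJT, 236 to 271 in YJZYT, 293 to 353 in Model and 599 to 704 in Blank libraries. Over 15 libraries, the score of this list (the median log2 deviation of its genes) and Per1 had a Pearson r of 0.94 and a Spearman rho of 0.92, with a permutation p of 1e-05 for each, the smallest that 100000 permutations can give, and 0.0002 after adjustment over 20 relations. Since the Blank libraries stand apart, r was also computed over the other 12 libraries, where it was 0.91 (permutation p = 3e-05). Without Blank 1 and Blank 2, the libraries farthest from the median, r was 0.92, and over deviations from the group means it was 0.74. Of the 7 genes, 0 passed edgeR's threshold in Model against Blank, against 0.0227% of all genes, and 5 had an unadjusted p under 0.05, all lower, against 8.19%. In YJZYT against Blank, 2 of the 7 passed, against 0.374% of all genes, and 4 had an unadjusted p under 0.05, all lower, against 11.9%. The 7 immediate early genes listed (Fos, Fosb, Jun, Junb, Egr1, Atf3 and Ier2) summed to 103 to 143 CPM in YJZYT and to 165 to 292 CPM in the other 12 libraries. The relation to the glucocorticoid list was not confined to Per1. Outside Blank its score had an r of 0.79 with Nr1d2, 0.76 with Nr1d1 and 0.66 with Tef and with Per2. The unadjusted permutation p-values were 0.002, 0.0039, 0.018 and 0.019. With the remaining clock genes r lay between -0.31 (Cry1) and 0.57 (Cry2). Over 15 libraries the adjusted permutation p of r was at least 0.13 for every gene but Per1. Clock had a rho of 0.69 there (adjusted permutation p 0.038). Relations with the glucocorticoid and muscle lists were examined after the levels had been seen.

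The skeletal muscle list moved with Per1 as well. The Pearson r of Per1 with its score was 0.75 and the Spearman rho 0.87 over 15 libraries (permutation p adjusted over 20 relations 0.011 and 0.0009). It was 0.83 without Model 2 and YJZYT 2, 0.68 (permutation p = 0.015) over the 12 libraries outside Blank, and 0.22 over deviations from group means. Outside Blank the muscle score also had an r of 0.64 with Nr1d1, 0.64 with Nr1d2 and 0.63 with Cry2 (unadjusted permutation p 0.023, 0.03 and 0.029). With the remaining clock genes r lay between -0.43 (Cry1) and 0.54 (Tef). Over deviations from group means, genes other than Per1 had between -0.47 (Cry1) and 0.53 (Per3). Over 15 libraries the adjusted permutation p of r was at least 0.16 for every gene but Per1. With the muscle score as a covariate, the log2 fold change of Per1 was -1.67 (SE 0.49) in Model against Blank. It was -1.27 (SE 0.61) in YJZYT against YJT and -2.20 (SE 0.67) in YJZYT against Blank. Without the covariate these standard errors were 0.37, 0.37 and 0.38. The edgeR adjusted p-values with it were 0.881, 0.999 and 0.999, and 0 of all 17657 genes passed in each comparison. The part of either list in the Per1 differences was not tested beyond these values.

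**Figure D3:**
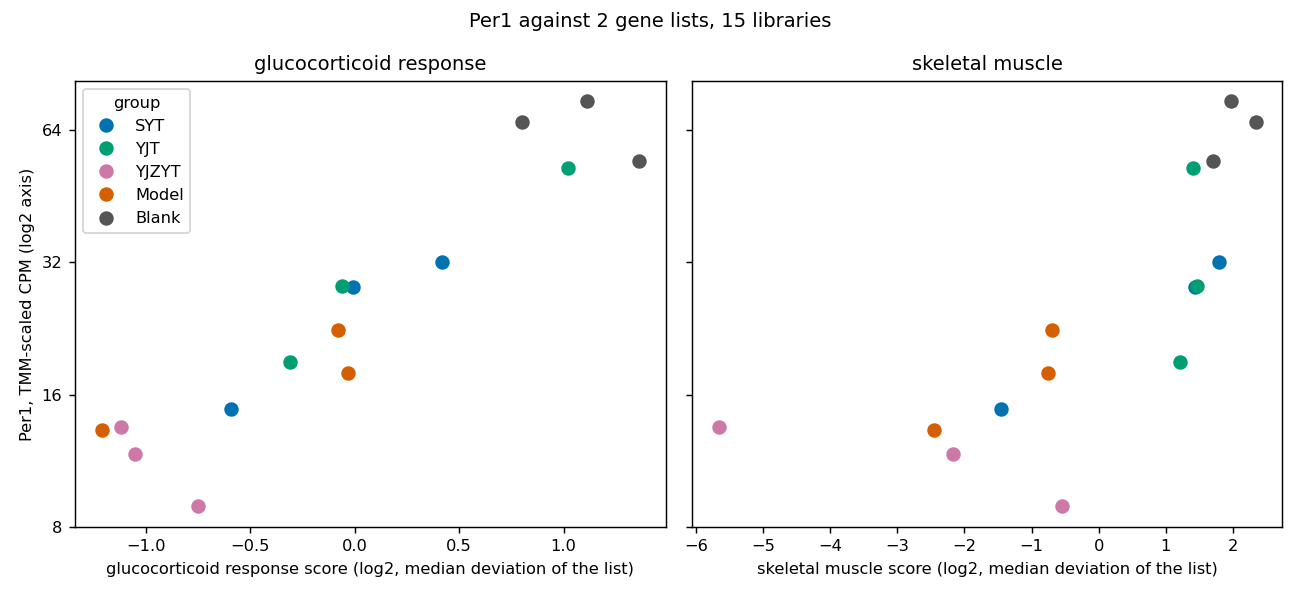
Per1 in TMM-scaled CPM (vertical log2 axis) against the glucocorticoid response score and the skeletal muscle score (horizontal axes, median log2 deviation of the list); each point is 1 of 15 libraries, coloured by group. The Blank libraries sit at the top right of both panels, between 54.6 and 74.5 CPM.

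The genes whose pattern over the 15 libraries was most like that of Per1 were Errfi1 (r = 0.95), Tmem252 (0.93), Klf9 (0.91), Acyp2 (0.91) and Usp2 (0.90), among 13154 tested genes with a mean of at least 1 FPKM. Errfi1, an inhibitor of the epidermal growth factor receptor, and Klf9, a Krüppel-like transcription factor, are on the glucocorticoid list. Usp2, a deubiquitinase, is on the list of other clock genes and had 2.75 ± 0.698 CPM in Model bone and 9.02 ± 2.57 CPM in Blank bone (SD, n = 3 each). None of the other 9 clock genes was near: Per2 and Nr1d2 had an r of 0.46 with Per1, at ranks 1530 and 1526.

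Per2 and Per3 encode the other PER repressors. Per2 (chromosome 9, 98555169 to 98597359, minus strand) had 9.62, 8.96 and 18.7 CPM in SYT, 21.2, 8.24 and 9.25 in YJT, 11.9, 8.41 and 11.5 in YJZYT, 10.7, 9.74 and 13.7 in Model and 12.8, 11.3 and 13.6 in Blank libraries. All groups overlapped, and the highest values were those of YJT 1 and SYT 3. In the 10 comparisons between 2 groups its log2 fold change lay between -0.28 and 0.18, with edgeR adjusted p-values of at least 0.821.

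Per3 (chromosome 5, 168086998 to 168123395, minus strand) had its lowest library in Model. It had 6.56, 30.8 and 18.8 CPM in SYT, 15.5, 20.3 and 17.6 in YJT, 11.9, 13.5 and 17.3 in YJZYT, 11.7, 4.07 and 9.47 in Model and 16.1, 8.99 and 16.4 in Blank libraries. Every YJT and YJZYT library was above every Model library, as for 6.83% and 7.35% of all genes, while SYT held both a low and the highest library. Against Model the log2 fold changes were 1.16 (SE 0.48) in SYT, 1.08 (SE 0.48) in YJT and 0.76 (SE 0.48) in YJZYT, with edgeR adjusted p-values of 1, 0.757 and 0.759. Without Model 2, the lowest library, they were 0.83, 0.75 and 0.43.

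Cry1 and Cry2 encode the cryptochrome repressors. Cry1 (chromosome 7, 24534615 to 24634097, plus strand), which is itself held down by the REV-ERB receptors, had 15.1, 12.6 and 17.6 CPM in SYT, 15.0, 15.2 and 12.9 in YJT, 15.1, 19.9 and 12.3 in YJZYT, 17.3, 35.1 and 21.7 in Model and 22.7, 17.3 and 16.3 in Blank libraries. Model 2 stood above all others, and all YJT libraries were below all Model libraries, as for 4.92% of all genes. Against Model the log2 fold changes were -0.71 (SE 0.26) in SYT, -0.78 (SE 0.26) in YJT and -0.65 (SE 0.26) in YJZYT, with edgeR adjusted p-values of 1, 0.746 and 0.638. Without Model 2 they were -0.37, -0.44 and -0.31. Cry2 (chromosome 3, 81314149 to 81344110, minus strand) had 42.0 CPM in its highest library, YJT 1, and 25.0 CPM in its lowest, YJZYT 2, and its group means ran between 36.0 ± 5.33 CPM in YJT and 29.3 ± 2.68 CPM in Blank bone (SD, n = 3 each). All SYT and all YJT libraries were above all Model libraries for Cry2, as for 3.24% and 6.83% of all genes. The log2 fold changes were 0.22 and 0.29 (SE 0.16 each), with edgeR adjusted p-values of 1 and 0.779.

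Clock (chromosome 14, 34446616 to 34502218, plus strand) encodes a protein that binds DNA as the partner of BMAL1. Clock was very low in 2 libraries and ran between 15.0 and 35.7 CPM in the others. It had 24.9, 30.0 and 33.4 CPM in SYT, 33.9, 3.45 and 23.7 in YJT, 26.2, 18.7 and 15.0 in YJZYT, 28.5, 2.16 and 35.7 in Model and 29.8, 29.0 and 34.2 in Blank libraries. YJT 2 with 207 counts and Model 2 with 154 counts stood far below their own groups. The lowest other library, YJZYT 3, was 4.35 times the higher of those 2. Of 13154 genes with a mean of at least 1 FPKM, Clock was the 1 gene that was more than 4 times lower in both YJT 2 and Model 2 than in the lowest other library, a limit set after its values had been seen and one that no gene meets at 5 times. No group contrast of Clock passed, and without those 2 libraries its log2 fold change in Model against Blank was 0.05 (SE 0.25), against -0.49 (SE 0.78) with them. All YJZYT libraries were below all Blank libraries for Clock, as for 12.7% of all genes. The log2 fold change there was -0.64 (SE 0.78), with an edgeR adjusted p of 0.782. The genes most like Clock in pattern, also listed after its values had been seen, were Plin1, Fut11, Ak4, Dph6 and Rad54l2 (r between 0.87 and 0.89), and all 5 were lowest in Model 2. Plin1 is on the adipocyte list, whose score was lowest in Model 2 (-2.97) and next lowest in YJT 2 (-1.37). The part of adipocytes in the Clock levels was not tested.

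The D-box factors Dbp and Tef and the REV-ERB genes Nr1d1 and Nr1d2 shared their highest library, SYT 3. Dbp (chromosome 1, 101687855 to 101692846, plus strand) had 17.5, 16.8 and 35.1 CPM in SYT, 22.1, 16.0 and 13.5 in YJT, 12.1, 14.7 and 17.8 in YJZYT, 11.5, 14.3 and 13.4 in Model and 10.8, 13.1 and 12.5 in Blank libraries. Tef (chromosome 7, 123043503 to 123058604, plus strand) had 24.2, 23.1 and 58.6 CPM in SYT, 31.8, 17.7 and 19.4 in YJT, 22.3, 17.2 and 16.1 in YJZYT, 16.4, 14.8 and 21.6 in Model and 18.3, 22.0 and 24.9 in Blank libraries. For both, all SYT libraries were above all Model libraries, as for 3.24% of all genes, and YJT 1 was the second highest of the 15.

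Nr1d1 (chromosome 10, 86683875 to 86690815, minus strand) had 8.47, 18.7 and 29.0 CPM in SYT, 21.5, 13.0 and 11.2 in YJT, 9.30, 9.95 and 7.87 in YJZYT, 6.91, 7.75 and 14.2 in Model and 6.51, 13.4 and 10.5 in Blank libraries. Nr1d2 (chromosome 15, 8730871 to 8757165, plus strand) had 27.2, 30.4 and 66.2 CPM in SYT, 40.9, 25.6 and 23.8 in YJT, 23.3, 20.2 and 18.5 in YJZYT, 20.6, 16.9 and 29.3 in Model and 20.4, 40.7 and 26.5 in Blank libraries. SYT 3 was again the highest, and SYT overlapped Model for both REV-ERB genes. In SYT 3 the osteoblast sum was the highest of all libraries, the neutrophil sum of 2202 CPM and the erythroid sum of 14043 CPM were the lowest, and the muscle sum of 4724 CPM was the highest outside Blank. The part of these cells in the clock gene levels of SYT 3 was not tested.

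In SYT against Model, 6 of the 10 clock genes had an unadjusted p under 0.05, where 3.16% of all genes did: Per3, Dbp, Tef, Nr1d1 and Nr1d2 were higher and Cry1 was lower. The log2 fold changes were 0.82 (SE 0.28) for Dbp, 1.0 (SE 0.34) for Tef, 0.96 (SE 0.43) for Nr1d1 and 0.89 (SE 0.36) for Nr1d2. The edgeR adjusted p was 1 for each of the 10 genes, 0% of all genes passed, and DESeq2 passed 0 of the 10, against 0.153% of all genes. The median log2 fold change of the 10 genes was 0.65, beside 0.02 over all genes tested. Without SYT 3, the 4 values were 0.39, 0.42, 0.50 and 0.37. Of the 10 genes 0 were then higher and 1 was lower at an unadjusted p under 0.05, against 620 of 18044 genes. Without Model 2, 2 were higher and 0 lower, against 563 of 18050 genes in either direction. All SYT libraries lay above all Model libraries for Cry2, Dbp and Tef, as they did for 3.24% of all genes. The 14 skeletal muscle genes were all at a higher estimate in SYT than in Model (median log2 fold change 2.14, 8 with an unadjusted p under 0.05, 0 past edgeR's threshold). With the muscle score as a covariate, 1 of the 10 clock genes was higher (Dbp) and 0 were lower at an unadjusted p under 0.05. Over all genes, 478 of 17657 then had one, against 558 without the covariate.

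YJT and YJZYT were set against Model in the same way. In YJT against Model, 3 of 10 had an unadjusted p under 0.05 (Per1 and Per3 higher, Cry1 lower), against 6.58% of all genes, and the median log2 fold change of the 10 was 0.39, beside -0.02 over all genes. In YJZYT against Model, 1 of 10 had one (Cry1, lower), against 7.29% of all genes, and the median was -0.10, beside -0.07 over all genes. With the muscle score as a covariate 0 of 10 were past an unadjusted p of 0.05 in YJT against Model, as were 733 of 17657 genes. In YJZYT against Model, 1 was then higher (Per3) and 1 lower (Cry1), against 1102 of 17657 genes. By edgeR, 0 of 10 and 0% of all genes passed in both, and DESeq2 also passed 0 of 10, against 0.544% and 0.363% of all genes. The 3 comparisons with Model share its libraries.

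YJZYT against SYT gave 5 lower clock genes at an unadjusted p under 0.05 (Per1, Dbp, Tef, Nr1d1 and Nr1d2), where 9.10% of all genes had one. Per1 had a log2 fold change of -1.14 and an edgeR adjusted p of 0.418, and the other 4 lay between -1.05 and -0.64 with adjusted p-values between 0.472 and 0.546. By edgeR 0 of 10 and 0% of all genes passed, and by DESeq2 0 of 10 and 1.58% of all genes. All YJZYT libraries were below all SYT libraries for Per1, Tef and Nr1d2, as they were for 6.56% of all genes. Without SYT 3 only Per1 of the 10 had an unadjusted p under 0.05. Over all genes, 905 of 18044 then had one, against 1607 of 17657 with SYT 3. The 14 muscle genes were all at a lower estimate in YJZYT than in SYT (median log2 fold change -2.87). Of these 14, 12 had an unadjusted p under 0.05 and 0 passed edgeR's threshold. With the muscle score as a covariate 0 of the 10 clock genes had an unadjusted p under 0.05. Over all genes, 641 of 17657 then had one, against 1607 without the covariate. In YJT against SYT, 0 of 10 had an unadjusted p under 0.05, against 3.05% of all genes, and 0 passed by edgeR or DESeq2, against 0% and 0.0453% of all genes.

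Of the 5 genes of the opposing arm of the loop, Arntl, Npas2, Clock and Nfil3 had their highest group means in Blank bone and Cry1 in Model bone. Arntl, which encodes BMAL1, had 9.35, 15.0 and 9.18 CPM in SYT, 10.8, 11.0 and 11.0 in YJT, 8.54, 9.37 and 5.06 in YJZYT, 11.1, 9.31 and 10.8 in Model and 14.7, 16.3 and 17.2 in Blank libraries. The Blank libraries were high, although SYT 2 overlapped them, and YJZYT 3 was the lowest. The log2 fold change was -0.63 (SE 0.24) in Model against Blank and -1.07 (SE 0.25) in YJZYT against Blank, with edgeR adjusted p-values of 0.502 and 0.0745. Npas2, a paralog of Clock, was at 2.67 ± 2.51 CPM in SYT, 3.12 ± 1.54 in YJT, 0.932 ± 1.16 in YJZYT, 2.12 ± 0.997 in Model and 4.85 ± 1.26 CPM in Blank bone (SD, n = 3 each), with an edgeR adjusted p of 0.798 in Model against Blank.

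Nfil3, a repressor at D-boxes, was lowest in SYT 3 with 7.97 CPM and highest in SYT 1 with 23.9 CPM. Hlf, another D-box activator, and Ciart, a repressor of the loop, were below 2 CPM in every library. Of 22 other clock genes listed, 21 were in the table and 20 could be tested, and 0 passed edgeR's threshold in any of the comparisons.

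**Figure D4:**
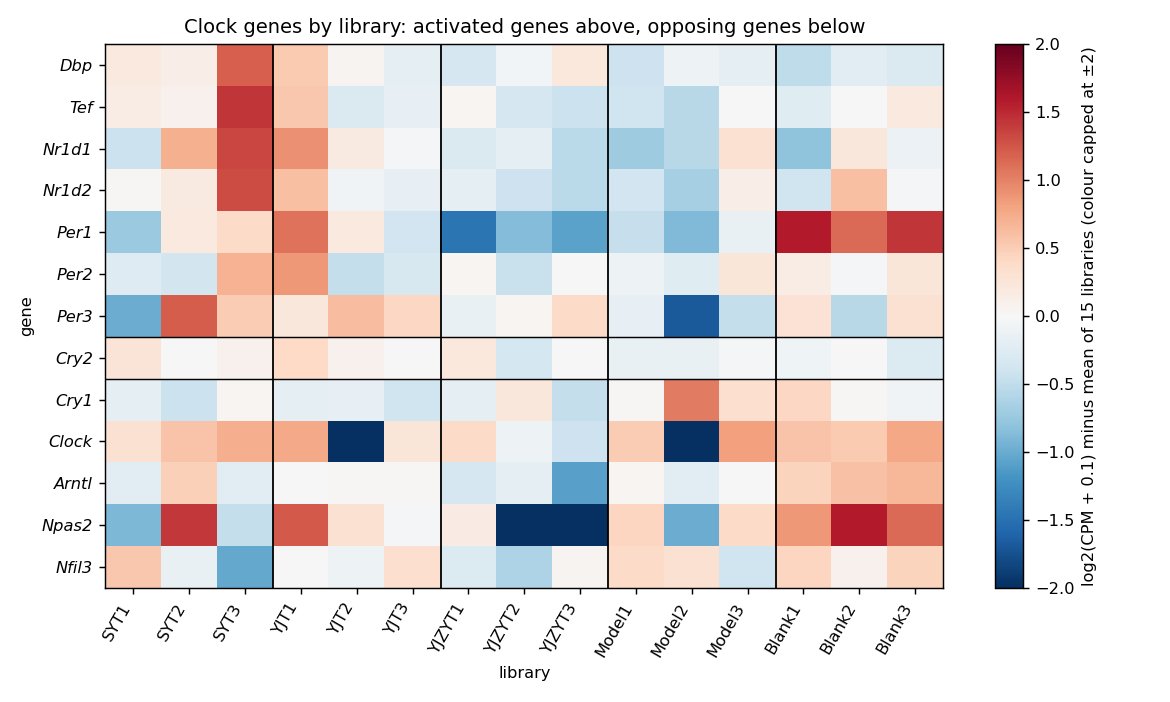
Deviation of each of the 10 clock genes and of Arntl, Npas2 and Nfil3 (rows) in each of the 15 libraries (columns, in the order SYT, YJT, YJZYT, Model, Blank) from its mean over all libraries, as log2(CPM + 0.1), with the colour capped at 2 in either direction. Dbp, Tef, Nr1d1 and Nr1d2 are high together in SYT 3, and Clock is low in YJT 2 and Model 2.

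Whether libraries differed in clock phase was described by the mean log2 deviation of Per1, Per2, Per3, Dbp, Tef, Nr1d1 and Nr1d2 minus that of Arntl, Npas2, Clock, Cry1 and Nfil3. This difference was -0.21, -0.08 and 1.17 in SYT, 0.31, 0.52 and -0.16 in YJT, -0.30, 0.35 and 0.69 in YJZYT, -0.67, -0.06 and -0.26 in Model and -0.55, -0.41 and -0.35 in Blank libraries. Only SYT 3 among the 15 libraries was above 1, and no library was below -1. The means were 0.30 ± 0.76 in SYT, 0.22 ± 0.35 in YJT, 0.24 ± 0.50 in YJZYT, -0.33 ± 0.31 in Model and -0.44 ± 0.10 in Blank bone (SD, n = 3 each), and each treated group overlapped Model. Every treated library, the lowest at -0.30, was above every Blank library, the highest at -0.35. The same held without Per1 (-0.13 and -0.55) but not on log2(FPKM + 1) (-0.21 and -0.12), nor with the arms taken from the 10 clock genes alone (-0.45 and -0.10). The mean of YJZYT turned sign with the same settings, to -0.02 ± 0.16 on log2(FPKM + 1) and -0.22 ± 0.34 from the 10 genes alone, where YJT had 0.58 ± 0.73 (SD, n = 3 each). The 0.52 of YJT 2 rested on its low Clock and was 0.01 without that gene. The 0.69 of YJZYT 3 was 0.14 on log2(FPKM + 1). Taken apart, both arms were above their 15-library means in every Blank library. The arm of Per1 to Nr1d2 had 0.01 to 0.25 there, the opposing arm 0.56 to 0.60. Both were below in every YJZYT library (-0.34 to -0.28 and -0.97 to -0.04). Opposite sides were seen in SYT 3 (0.98 and -0.19), YJT 2 (0.03 and -0.48) and YJT 3 (-0.12 and 0.04). They were also seen in Model 1 (-0.38 and 0.29) and Model 3 (-0.02 and 0.24), and in no other library.

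Across libraries, Tef, Nr1d1 and Nr1d2, all targets of the loop, varied together, and Dbp joined them mainly through SYT 3 and YJT 1. Over 15 libraries and 65 gene pairs, Tef and Nr1d2 had a Pearson r of 0.92 (Spearman rho 0.86, adjusted permutation p 0.0013 and 0.0045), and Nr1d1 and Nr1d2 had 0.88 (rho 0.85, the same adjusted p-values). Tef and Nr1d1 had 0.80 (rho 0.67, adjusted permutation p 0.0087 and 0.065), and Dbp and Nr1d1 0.75 (rho 0.53, 0.017 and 0.21). Without SYT 3 and YJT 1, the libraries farthest from the median, these 4 values were 0.76, 0.74, 0.51 and 0.33, so the relation of Dbp and Nr1d1 rests on those libraries. Over deviations from the group means they were 0.88, 0.88, 0.76 and 0.64.

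In all, 10 of the 65 pairs had an adjusted permutation p under 0.05, 9 of them positive. Beside the 4 above, Per1 went with Arntl (r = 0.76, rho = 0.72, adjusted permutation p = 0.012) and with Npas2 (r = 0.70, rho = 0.73, 0.039), and Per2 with Tef (r = 0.71, rho = 0.49, 0.039). Over deviations from the group means r was 0.13 with Arntl and 0.23 with Npas2, and over the 12 libraries outside Blank it was 0.54 and 0.62. That of Per2 and Tef was 0.31 without SYT 3 and YJT 1. The last 3 pairs stood at an adjusted permutation p of 0.049, close enough to the threshold that the random draw decides them. They were Dbp with Tef (r = 0.76, rho = 0.29), Dbp with Nr1d2 (r = 0.70, rho = 0.36) and Per3 with Cry1 (r = -0.68, rho = -0.46). Without the 2 farthest libraries their r was -0.01, 0.05 and -0.55.

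Between the 2 arms of the loop, the pairs past the threshold were Per1 with Arntl and with Npas2, both positive, and Per3 with Cry1, negative. Dbp and Arntl had an r of -0.35 (rho -0.49, adjusted permutation p 0.44), Dbp and Npas2 -0.21, Nr1d1 and Arntl 0.16, and Nr1d2 and Arntl 0.25. Nfil3, examined after the levels had been seen, had an r of -0.66 with Nr1d1 (rho -0.59, permutation p adjusted over 10 relations 0.077 and 0.24) and of -0.58 with Dbp (rho -0.38, 0.12 and 0.81). Without SYT 3 and YJT 1 these were -0.50 and -0.18. Over deviations from the group means they were -0.86 and -0.58, and Nfil3 had -0.78 with Nr1d2, -0.67 with Tef and -0.59 with Per1. With the remaining clock genes that r lay between -0.40 (Per2) and 0.12 (Cry2). Without SYT 3 and YJT 1, and not as deviations, Nfil3 had -0.11 with Nr1d2 and 0.04 with Tef. Per1 and Dbp, 2 targets of the same activator, had an r of 0.02 over 15 libraries. Over the 12 libraries outside Blank, computed after the levels had been seen, Per1 had an r of 0.82 with Nr1d1 (permutation p = 0.0011), 0.73 with Nr1d2 (permutation p = 0.0063) and 0.57 with Dbp (permutation p = 0.052), not adjusted for the number of pairs.

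**Figure D5:**
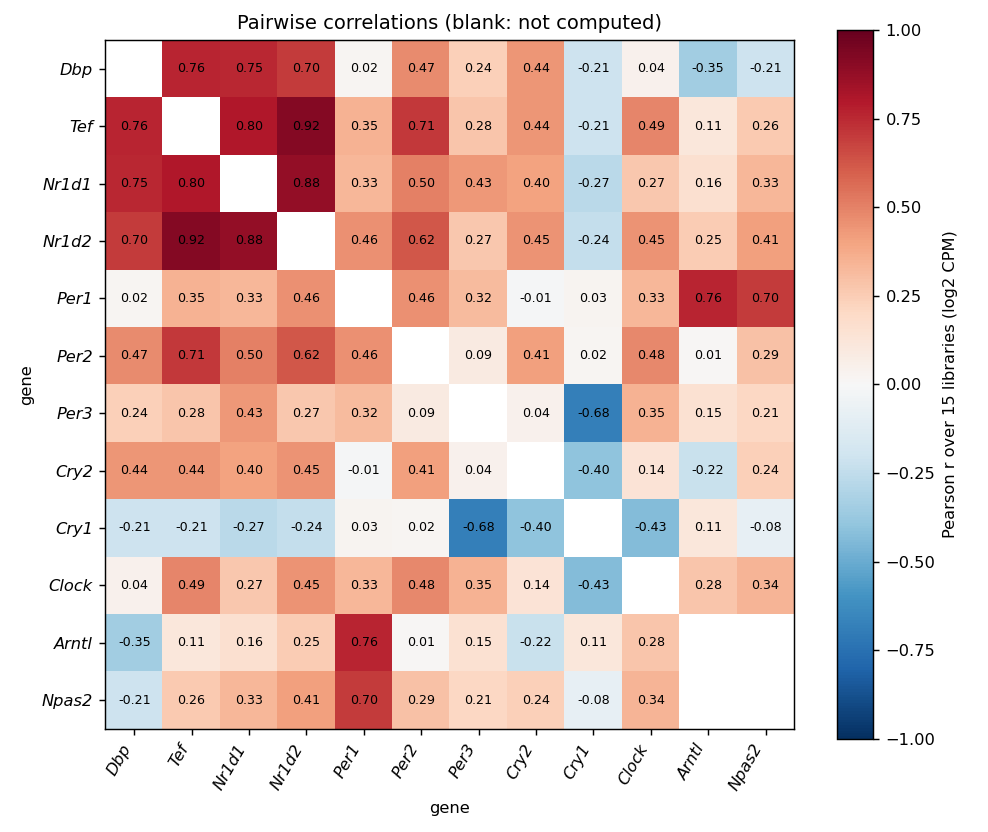
Pearson r over 15 libraries (log2 CPM, colour and printed value) between the 10 clock genes and between each of them and Arntl and Npas2; the white squares were not computed. The block of Dbp, Tef, Nr1d1 and Nr1d2 holds values between 0.70 and 0.92, while their values with Arntl lie between -0.35 and 0.25.

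Ranked over 13153 genes by Pearson r, the 9th, 10th and 15th closest to Dbp were Tef, Nr1d1 and Nr1d2, and the closest to Nr1d1 was Nr1d2. The ranks for Dbp rest on SYT 3 and YJT 1. Without those libraries its r was -0.01 with Tef, 0.33 with Nr1d1 and 0.05 with Nr1d2. Outside the clock genes, the most like Dbp were Borcs6 (r = 0.86), Fastk (0.82), Btbd6 (0.80), Phospho1 (0.79) and Dnajc4 (0.78), and all 5 were highest in SYT 3. Phospho1 encodes a phosphatase that works in bone mineralization and had 181 CPM in SYT 3, its highest library, and 61.0 CPM in Blank 1, its lowest.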

How the data were processed

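The labels' protocols describe poly(A)-selected, strand-marked libraries with molecular identifiers. Per the submitters' processing notes, the tools were UMI-tools, edgeR, DESeq2, cutadapt 1.9, StringTie 1.3.4d and HISAT2 2.0.4, with no roles named. Nothing read here names the genome build or the annotation. The authors deposited whole-number counts and FPKM per gene for each library, per the file headers. No deposited value was changed.

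Counts of all 15 libraries were fitted together with edgeR 4.0.16 (R 4.3.3; filterByExpr, TMM factors, robust quasi-likelihood), two-sided, with Benjamini-Hochberg adjustment over 17657 genes and a threshold of 0.05; 4811 genes with low counts were left out. The biological coefficient of variation from edgeR's common dispersion was 42.7%. Standard errors came from the fold change and its F statistic. CPM are TMM-scaled; log2 CPM used a prior count of 2. DESeq2 1.42.0 and limma 3.58.1 (log2(FPKM + 1) or log2(FPKM + 0.1)) were alternatives, with other scalings, no filter, 2 groups alone, a replicate block, a muscle covariate and leaving out libraries. Correlations used 100000 permutations (scipy 1.17.1).

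All 10 clock genes and their closest 5 genes by correlation to Per1 and Dbp were named, with further clock genes from a list, not all of which are reported here. The genes and lists were chosen with earlier results of these data known. No 2 libraries of the same group were duplicates, and libraries of different groups were not compared for this. Same-numbered libraries were taken as pairs only if the correlation of their deviations was over 0.1 in each of the 3 pairs, which no comparison met; the lowest was 0.0584 in Model against Blank and 0.00477 in YJZYT against YJT, the 2 with all 3 positive.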

Additional observations from a re-analysis of the deposited data

Results flagged for a closer look

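The Per1 estimates had opposite signs in 2 treated groups set against the same 3 Model libraries, although neither passed and both groups overlapped Model: in edgeR the log2 fold change was -0.65 in YJZYT against Model (adjusted p 0.725) and 0.90 in YJT against Model (adjusted p 0.746), or 0.40 without YJT 1. The difference itself, which is YJZYT against YJT, was a log2 fold change of -1.55 with an edgeR adjusted p of 0.158 over all genes. YJZYT libraries had 8.93, 13.5 and 11.7 CPM, and YJT libraries 52.6, 28.3 and 19.0 CPM. The summed level of the glucocorticoid response genes was 236 to 271 CPM in YJZYT and 329 to 517 CPM in YJT, and that of the muscle genes was 41 to 1048 CPM in YJZYT and 3662 to 4510 CPM in YJT; their part in the difference was not tested beyond the fit with the muscle score.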

How the results depend on the processing

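By edgeR 0 clock genes passed in Model against Blank, in YJZYT against YJT and over the 5 groups. DESeq2 passed 1 (Per1) in each. Limma on log2(FPKM + 1) passed 1 over the 5 groups, where 101 of 13944 genes passed. The cause of these differences between methods was not tested. In YJZYT against Blank the count of 1 became 0 with the replicate block, where 6 of 17657 genes passed. It also became 0 with the muscle score as a covariate, where 0 of 17657 passed. Without YJT 3 and YJZYT 3, which leaves fewer libraries, it was 0 and 1 of 18006 genes passed. Leaving out 1 library at a time, the count ranged from 0 to 1. Correlated pairs numbered 6 by Spearman's rho, 3 without the 2 farthest libraries and 3 without SYT 3, instead of 10. The difference between the arms of the loop moved by over 1 SD in some libraries: on log2(FPKM + 1) it was 0.14 in YJZYT 3; from the 10 clock genes alone it was 0.59 in SYT 3, 1.38 in YJT 2, -0.39 in YJZYT 2, 0.16 in YJZYT 3 and 0.41 in Model 2; without Clock it was 0.01 in YJT 2 and -0.70 in Model 2. Of 100 fold changes of single clock genes, 89 kept their sign without scaling factors, 71 with the muscle covariate and 84 to 86 on FPKM. The replicate block, which pairs libraries by a shared number only, kept 97 signs, gave 0 calls and left Per1 in YJZYT against Blank at -2.51 (adjusted p 0.0638). At these depths counting error is small beside the spread between 3 libraries, which limits the tests.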
